A study of Mus musculus with 6 samples.

Results

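A set of 7 genes of peripheral nerve was followed through bulk RNA-Seq of inguinal white adipose tissue (iWAT), the subcutaneous fat depot of the mouse groin, to see how much nerve RNA each library held. They were taken by symbol from the deposited count table, using for each symbol its row of largest total count. Of the 7 genes, 5 had a row analysed here (*Mbp*, *Mag*, *Sox10*, *S100b* and *Cdh19*), out of 19509 symbols on 37024 rows. *Pmp22* and *Ngfr* were not analysed here. Counts above 0 were found for 4 of the 5, and the same 4 were among the 9872 rows that passed the filter on low counts and were tested.

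The study compared *Lexis*-AdKO mice, in which a floxed *Lexis* allele was deleted by adiponectin-Cre, with *Lexis*-AdWT littermates, which carry *Lexis* fl/fl without Cre. Both groups were on a C57BL/6 background and ate a Western diet for 12 weeks, and each gave 3 libraries. The age at tissue collection is not stated in the sources used here. Adiponectin-Cre is active in adipocytes, so nerve cells and the other cells of the depot should keep the floxed allele intact. Recombination by cell type was not measured here. The libraries held 14470542 to 17882713 counts, and a count of 0 allows up to 3 counts, or 0.179 to 0.206 CPM (counts scaled to a common library size), for counting error alone. The lincRNA gene *4930412L05Rik*, taken here as *Lexis*, had 8 to 9 counts under the AdWT label and 11 to 21 under the AdKO label. The targeted gene was thus not lower under the AdKO label, and every direction below rests on the labels. By qRT-PCR the paper reports loss of *Lexis* in adipose tissues of AdKO mice. It also reports higher *Ucp1* and *Cox8b* in AdKO in its RNA-Seq of iWAT.

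Fat is supplied by sympathetic and sensory axons that run in small nerves beside blood vessels. Schwann cells ensheath these axons, some of them with a myelin sheath and others in bundles without myelin. Since axon cell bodies lie outside the depot, the nerve RNA of a fat sample comes mostly from Schwann cells and from the connective sheath of the nerve. *Sox10* encodes the transcription factor that sets and keeps Schwann cell identity, and *Cdh19* encodes a cadherin typical of Schwann cells and their precursors. *Mbp* and *Mag* encode myelin basic protein and myelin-associated glycoprotein. *S100b* encodes a calcium-binding protein that Schwann cells and adipocytes both make, and in thermogenic fat it is known as a secreted factor that favors sympathetic innervation.

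The 4 measured genes differed in how they ran from library to library. Over the 6 libraries Pearson's r of log2 CPM was 0.74 for *Mbp* with *S100b*, 0.44 for *S100b* with *Cdh19*, 0.27 for *Mbp* with *Cdh19*, 0 for *Mbp* with *Sox10*, -0.44 for *Sox10* with *S100b* and -0.55 for *Sox10* with *Cdh19*. These are descriptions over 6 points that share their library and its depth. *Sox10* had counts of 64, 26 and 28 in the AdWT libraries and 29, 51 and 85 in the AdKO libraries. Scaled for library size and composition by the TMM method of edgeR, this was 4.18, 1.55 and 1.87 CPM in AdWT and 1.99, 3.35 and 5.10 CPM in AdKO. AdKO replicate 3 was highest, AdWT replicate 1 came next, and the groups overlapped. The highest library stood 3.28-fold above the lowest. The exact Poisson 95% intervals, which cover counting error only, were 67.9 to 105.1 counts for AdKO replicate 3 and 17.0 to 38.1 counts for AdWT replicate 2, so that the spread between libraries was wider than counting error.

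*Cdh19* had counts of 135, 132 and 136 in AdWT and 174, 123 and 104 in AdKO. Its levels were 8.82, 7.88 and 9.08 CPM in AdWT against 11.9, 8.09 and 6.24 CPM in AdKO. The AdWT libraries lay close together between the AdKO libraries. AdKO replicate 3, the library with the most *Sox10*, had the least *Cdh19*, and the ratio of *Sox10* to *Cdh19* counts ran from 0.167 in AdKO replicate 1 to 0.817 in AdKO replicate 3.

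*Mbp* was the steadiest of the 4. Its counts were 1024, 1072 and 1154 in AdWT and 1141, 996 and 1273 in AdKO, or 66.9, 64.0 and 77.1 CPM against 78.3, 65.5 and 76.4 CPM. Highest and lowest libraries differed by 1.22-fold. The gene has 8 rows in the table, of which 1 had counts. *Mbp* also gives rise to longer golli transcripts, which are known from immune cells as well as from the nervous system, and the table does not say which transcript its counted row stands for.

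*S100b* had counts of 549, 665 and 1155 in AdWT and 898, 733 and 771 in AdKO. The levels were 35.9, 39.7 and 77.2 CPM in AdWT against 61.6, 48.2 and 46.2 CPM in AdKO. AdWT replicate 3 was highest and AdWT replicate 1 lowest, so that the AdWT libraries spanned the AdKO libraries. *S100b* and *Sox10* ran in different orders, with 8.58 counts of *S100b* per count of *Sox10* in AdWT replicate 1 and 41.2 in AdWT replicate 3. *Mag*, which marks the myelin layer next to the axon, was listed at 0 on both of its rows in every library.

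**Figure D1:**
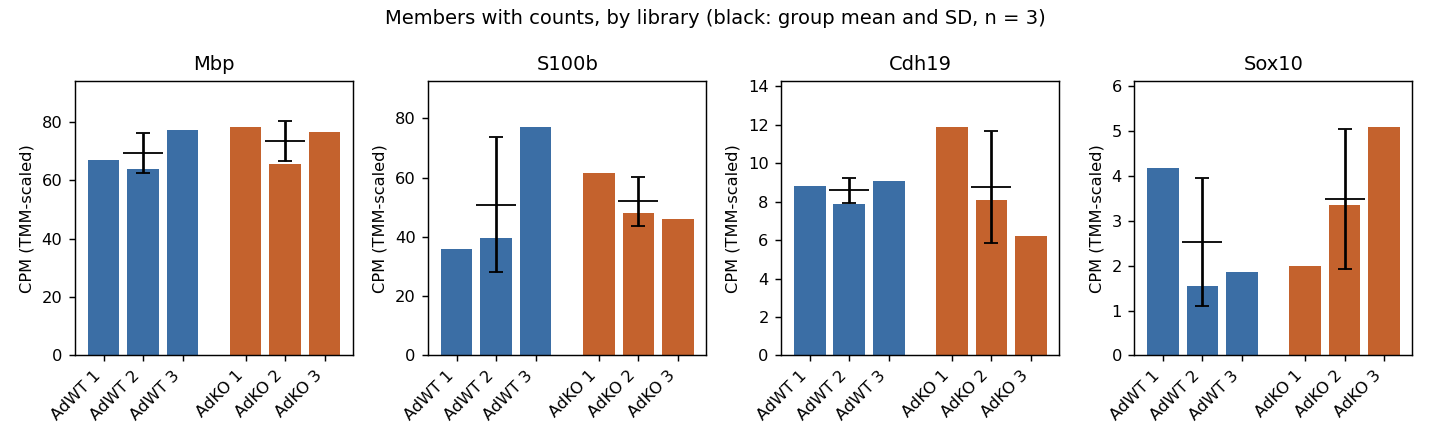
Levels of *Mbp*, *S100b*, *Cdh19* and *Sox10* in TMM-scaled CPM (vertical axes, each from 0) in the 3 AdWT libraries (blue) and the 3 AdKO libraries (orange), with the group mean and SD in black. *Mbp* stays between 64.0 and 78.3 CPM, while *Sox10* is highest in AdKO replicate 3 (5.10 CPM) and AdWT replicate 1 (4.18 CPM).

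In NCBIM37 (mm9), the build of the alignment, *Sox10* (ENSMUSG00000033006.8) lies on the minus strand of chromosome 15 from 78985343 to 78994920 and *Cdh19* (ENSMUSG00000047216.7) on the minus strand of chromosome 1 from 112785772 to 112873949. *Mbp* (ENSMUSG00000041607.10) lies on the plus strand of chromosome 18 from 82644538 to 82755029, and *Mag* (ENSMUSG00000036634.8) on the minus strand of chromosome 7 from 31684202 to 31699851. *S100b* (ENSMUSG00000033208.7) lies on the plus strand of chromosome 10 from 75716598 to 75723904. Its gene body overlaps that of *Dip2a* on the opposite strand, with 0 shared exon bases in GENCODE, and the row of *Dip2a* had 1 to 12 counts per library. *Mag* has 3 annotated transcripts, and how reads common to several rows of a symbol were counted is not given in the sources used here. *Pnpla2*, the gene of the main adipocyte triglyceride lipase, was also at 0 on all 4 of its rows. A value of 0 on such rows is thus a listing and not a measurement of absence.

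Divided by exon length, the mean level over the 6 libraries was 34.7 CPM per kb for *S100b*, 8.50 for *Mbp*, 2.84 for *Cdh19* and 1.11 for *Sox10*. Per library, *S100b* ranged from 24.2 to 52.0 CPM per kb, *Mbp* from 7.62 to 9.32, *Cdh19* from 2.04 to 3.90 and *Sox10* from 0.571 to 1.88, so that no neighbors in this order overlapped in any library. The value of *Mbp* divides 1 counted row by all 8403 annotated exon bases and holds only as far as that row covers them. *S100b* and *Cdh19* have a single row and 1 annotated transcript each.

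None of the 4 genes differed between AdKO and AdWT beyond the spread of the replicates. By the quasi-likelihood test of edgeR, adjusted after Benjamini and Hochberg, 0 of the 4 had an adjusted *p* under 0.05, against 0 of all rows tested (0%), and 0 of the 4 had an unadjusted *p* under 0.05, against 5.73% of all rows. DESeq2 called 0 of the 4 at either threshold. The groups overlapped in all 4, where 11.9% of the tested rows did not overlap.

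*Sox10* was 2.53 ± 1.43 CPM (SD, n = 3) in AdWT and 3.48 ± 1.56 CPM (SD, n = 3) in AdKO. The change on the log2 scale, AdKO over AdWT, was 0.47 (standard error 0.463, 95% interval -0.62 to 1.55, adjusted *p* = 0.885 by edgeR). An exact permutation test over the 6 libraries, two-sided, gave *p* = 0.5, where 0.1 is the smallest *p* that 3 libraries against 3 can reach. *Cdh19* was 8.59 ± 0.633 CPM (SD, n = 3) against 8.76 ± 2.91 CPM (SD, n = 3), a log2 fold change of 0.03 with a 95% interval of -0.54 to 0.59 (adjusted *p* = 0.986 by edgeR). *Mbp*, with 69.3 ± 6.88 CPM (SD, n = 3) against 73.4 ± 6.90 CPM (SD, n = 3), had the narrowest interval, -0.16 to 0.32 around a log2 fold change of 0.08 (adjusted *p* = 0.894 by edgeR). *S100b* was 50.9 ± 22.8 CPM (SD, n = 3) in AdWT and 52.0 ± 8.38 CPM (SD, n = 3) in AdKO, a log2 fold change of 0.03 with a 95% interval of -0.64 to 0.70 (adjusted *p* = 0.986 by edgeR). These libraries thus leave room for a change of *Sox10* of more than 2-fold upward, while for *Mbp* the interval stays within a log2 change of 0.32. In bulk tissue, fewer Schwann cells and less RNA per Schwann cell cannot be told apart.

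The value for *Sox10* turned on single libraries. Its log2 fold change was 1.03 without AdWT replicate 1 and 0.08 without AdKO replicate 3, the libraries with the most *Sox10* in their groups. It was 0.20 without AdWT replicate 2, 0.29 without AdWT replicate 3, 0.74 without AdKO replicate 1 and 0.49 without AdKO replicate 2. Without AdWT replicate 1 its unadjusted *p* was 0.046 (adjusted *p* = 0.415 by edgeR), when 11.8% of all rows tested had an unadjusted *p* under 0.05. The groups then no longer overlapped for *Sox10*, as in 32.3% of all rows. For *S100b* AdWT replicate 3 decided the value. Without it the log2 fold change was 0.45 (unadjusted *p* = 0.0162, adjusted *p* = 0.941 by edgeR), when 4.9% of all rows tested had an unadjusted *p* under 0.05, and the groups no longer overlapped, as in 21.2% of all rows. Without AdWT replicate 1, AdWT replicate 2 or AdKO replicate 1 the sign of *S100b* turned, to -0.17, -0.12 and -0.11. *Cdh19* turned to -0.04 without AdWT replicate 2 and to -0.26 without AdKO replicate 1.

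AdWT replicate 1 also stood apart in other genes of the myelin sheath. A list of 19 peripheral myelin genes, which includes *Mbp*, *Mag* and *Pmp22*, had 7 genes with at least 10 counts in the other 5 libraries together, and 5 of these 7 were highest in AdWT replicate 1. Over all rows tested, 14.6% were highest in that library. The median of log2(CPM + 0.5) in AdWT replicate 1 less the mean of the other 5 libraries was 0.87 over the 7 genes and 0 over all rows. The myelin genes beside *Mbp*, *Pllp*, *Cnp* and *Cldn19* are named here because of this pattern, after their values were seen.

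*Cldn19*, which encodes the tight junction protein of the Schwann cell's own membrane contacts, had counts of 67, 23 and 16 in AdWT and 17, 30 and 28 in AdKO, 2.22-fold higher in AdWT replicate 1 than in the next library. *Fa2h*, whose enzyme hydroxylates the fatty acids of myelin lipids, had 37, 15 and 9 against 11, 12 and 11. *Prx*, the gene of the myelin scaffold protein periaxin, had 19, 11 and 7 against 0, 11 and 3. *Gldn*, the gene of the node-of-Ranvier protein gliomedin, had 22, 6 and 6 against 9, 11 and 13, and *Mal*, a gene of a myelin proteolipid, had 11, 0 and 1 against 1, 4 and 3 and is not among the 7. In each of these 5 genes AdWT replicate 1 was at least 1.72-fold above the next library. For *Cldn19* the Poisson interval of AdWT replicate 1, 51.9 to 85.1 counts, lay above those of all other libraries, the highest of which reached 42.8 counts, and the same held for *Fa2h*, with 26.1 to 51.0 counts against at most 24.7. For *Prx*, *Gldn* and *Mal* the interval of AdWT replicate 1 began at 11.4, 13.8 and 5.5 counts and overlapped those of other libraries, which reached 19.7, 22.2 and 10.2 counts. *Pllp*, the plasmolipin gene, was highest there by only 1.04-fold.

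*Mbp*, *Cnp* and *Cdh19* did not share this pattern. AdWT replicate 1 lay 0.10 below the other 5 libraries for *Mbp* and 0.06 above them for *Cdh19* on the log2 scale. *Cnp*, 1 of the 7 myelin genes, was lowest in AdWT replicate 1, which lay 0.34 below the other 5 libraries. *Sox10* lay 0.62 above them and *S100b* 0.56 below. *Cadm4*, the gene of a cell adhesion protein through which Schwann cells attach to axons, had 242, 129 and 114 counts in AdWT and 143, 158 and 142 in AdKO, and was 1.52-fold above the next library in AdWT replicate 1. Of the 9 Schwann cell genes outside myelin with at least 10 counts, 3 were highest in AdWT replicate 1 and 2 were lowest. Over all rows these shares were 14.6% and 15.5%. The median difference of the 9 genes from the other 5 libraries was 0.26 on the log2 scale. The 2 lowest were *Scn7a*, 0.54 below the other 5 libraries, and *Gap43*, 0.78 below with 2 counts.

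**Figure D2:**
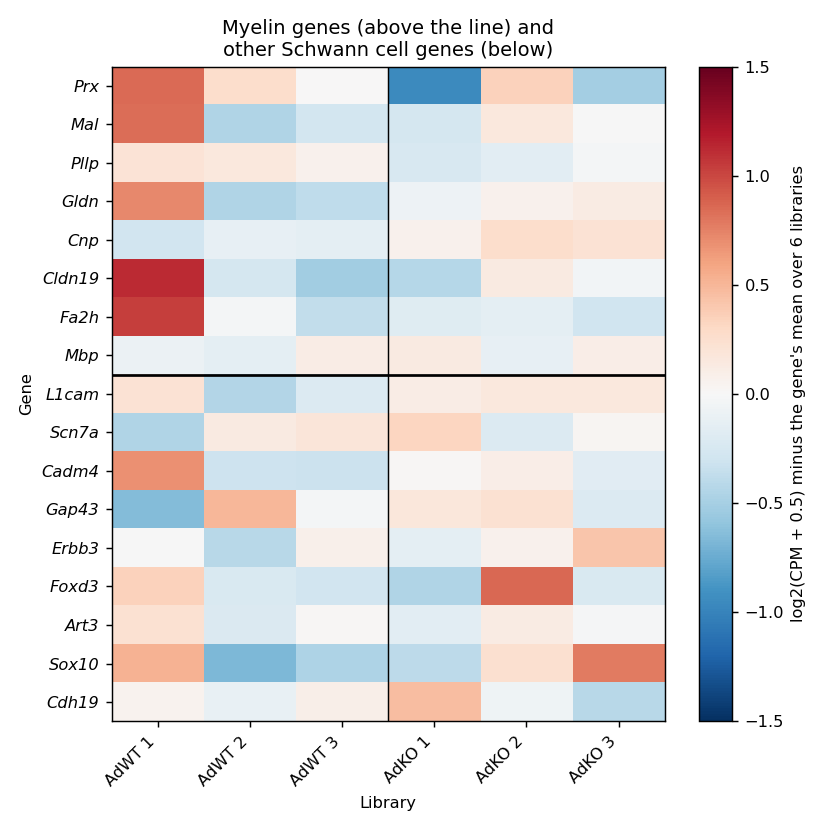
Each tile is log2(CPM + 0.5) of a gene in a library less the gene's mean over the 6 libraries (color scale in log2 units), for the 8 myelin genes above the line and the 9 other Schwann cell genes below it with at least 10 counts in total. AdWT replicate 1 holds the highest value in 5 of the 7 myelin genes with at least 10 counts in the other 5 libraries. It is also highest in *Mal*, which has fewer there, and it is lowest in *Cnp*. *Mbp* is near its mean in every library.

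Several lymphocyte genes were highest in the same library. Of 9 listed T and B cell genes, 8 had a row analysed here and 6 had at least 10 counts in the other 5 libraries together, 4 of these 6 being highest in AdWT replicate 1, as 14.6% of all rows were. Their summed level was 34.8 CPM there, 12.7 and 15.9 CPM in the other AdWT libraries and 11.4 to 17.9 CPM in AdKO. *Cd4*, the coreceptor gene of helper T cells, had 200 counts in AdWT replicate 1 and 40 to 62 elsewhere, and *Cd79a*, a gene of the B cell receptor, had 86 against 11 to 34. Of the 4 tested, *Cd4* had an unadjusted *p* under 0.05 between the groups, beside 5.73% of all rows (log2 change -1.3, adjusted *p* = 0.851 by edgeR), and *Cd8a* was listed at 0. The inguinal depot contains a lymph node, and the methods do not say whether it was removed for bulk RNA-Seq, while they say so for the pooled iWAT used for nuclei. The part of lymph node tissue in the myelin gene values of this library was not tested.

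The high *Sox10* of AdKO replicate 3 stood beside high epithelial genes. Among the myelin genes of that library, *Cldn19* had 1.68 CPM (1.07 to 1.97 CPM in the libraries other than AdWT replicate 1), *Fa2h* had 0.66 CPM and *Prx* 0.18 CPM, while *Gldn* with 0.78 CPM and *Cnp* with 6.42 CPM were second highest and *Mbp* had 76.4 CPM. *Sox10* is also known from mammary epithelium and melanocytes. Of 9 epithelial genes, 7 had a row analysed here and 4 had at least 10 counts in the other 5 libraries together, all 4 of them (*Krt5*, *Krt8*, *Krt18* and *Epcam*) highest in AdKO replicate 3, as 14.3% of all rows were. The summed level was 48.3 CPM in AdKO replicate 3 and 1.03 and 1.25 CPM in the other AdKO libraries, against 1.5, 1.01 and 20.4 CPM in AdWT. *Krt18*, a keratin gene of simple epithelium, had 333 counts in AdKO replicate 3 and 173 in AdWT replicate 3, while *Sox10* had 85 and 28 counts in these libraries. *Epcam* had 216 and 20 counts there, and *Krt5*, a keratin gene of basal and myoepithelial cells, had 79 and 9. *Krt5* had at most 2 counts in each of the other 4 libraries. The part of epithelial cells in the *Sox10* value was not tested.

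Melanocyte genes were set beside *Sox10* for the same reason. Of 6 listed, 5 had a row analysed here, and their summed level was 4.81 to 5.03 CPM in AdWT and 4.6 to 6.86 CPM in AdKO, with *Tyrp1* listed at 0. *Pmel* had 30 to 40 counts in AdWT and 25 to 31 in AdKO. *Mlana*, a melanosome gene, was 1.76, 1.37 and 1.8 CPM in AdWT against 3.5, 1.91 and 2.28 CPM in AdKO, and its groups did not overlap, as in 11.9% of all rows (log2 change 0.63, standard error 0.284, adjusted *p* = 0.851 by edgeR). It was highest in AdKO replicate 1, where *Sox10* was 1.99 CPM. The part of melanocytes in the *Sox10* values was not tested. Skeletal muscle genes, another tissue that carries nerve, summed to 152 CPM in AdWT replicate 2, to 30.7 and 11.9 CPM in the other AdWT libraries and to 2.63 to 3.48 CPM in AdKO. All 5 muscle genes tested were lower in AdKO with an unadjusted *p* under 0.05, beside 5.73% of all rows in either direction, and 0 with an adjusted *p* under 0.05 by edgeR. *Ckm* had 87, 576 and 29 counts in AdWT and 0 in every AdKO library. *Tcap* had 20, 129 and 17 counts against 0, 1 and 4. These 2 genes passed the filter on low counts only through AdWT, so their direction was largely set by the filter. AdWT replicate 2 had the lowest *Sox10* of all libraries. The part of muscle nerve in the *Sox10* values was not tested.

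**Figure D3:**
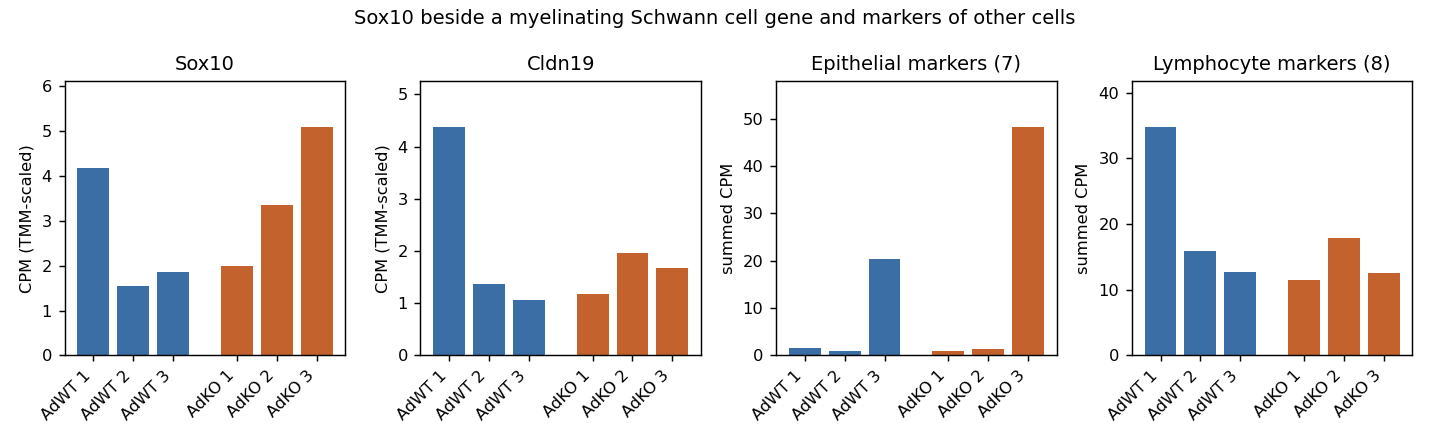
Bars give *Sox10* and *Cldn19* in TMM-scaled CPM and the summed CPM of 7 epithelial and 8 lymphocyte genes (vertical axes from 0) in the 3 AdWT (blue) and 3 AdKO libraries (orange). The *Sox10* value of AdWT replicate 1 stands beside the highest *Cldn19* and lymphocyte values, and that of AdKO replicate 3 beside the highest epithelial value of 48.3 CPM.

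*S100b* was set beside genes of white adipocytes, its other source. Of 10 such genes, 6 had at least 10 counts, and 5 of these 6 were highest in AdWT replicate 3, the library with the most *S100b*. Over all rows tested, 22.2% were highest in AdWT replicate 3. *Lep*, the leptin gene, was the 1 of 6 adipocyte genes with an unadjusted *p* under 0.05, beside 5.73% of all rows (log2 change -0.46, standard error 0.161, adjusted *p* = 0.851 by edgeR). Per 1000 counts of *Adipoq*, the adiponectin gene, there were 6.79, 6.22 and 10.2 counts of *S100b* in AdWT and 9.90, 10.3 and 8.82 in AdKO. Per 1000 counts of *Car3*, the carbonic anhydrase gene typical of white fat, there were 2.61, 2.09 and 3.20 against 3.32, 3.30 and 3.17. The groups overlapped in both ratios. The counts of *S100b* were 4.07 to 8.49 times those of *Cdh19*, and which share of *S100b* came from which cell type was not tested. *Clstn3*, whose locus also gives the adipocyte protein calsyntenin 3β that promotes release of S100b, was 98.9, 105 and 70.1 CPM in AdWT against 69.3, 103 and 61.9 CPM in AdKO (log2 fold change -0.23, standard error 0.218, adjusted *p* = 0.885 by edgeR).

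The stretch around the transcription start of *S100b* is shown because it is the one measured member with an entry in the RefSeq promoter table used here, beside that of *Cldn19*, the myelin gene whose AdWT replicate 1 value stood furthest above the mean of the other libraries on the log2 scale. *Sox10*, *Cdh19* and *Mbp* had no entry. Both run from 250 bases before to 50 after the annotated start in GRCm38.p6, which is not the build of the count table, at chr10:76253586-76253885 on the plus strand for *S100b* and at chr4:119255191-119255490 on the plus strand for *Cldn19*. Capitals mark a core of the SOX family, searched as ACAAAG, by the form ACAATG, by its variant TCAAAG and by the variant TCAATG on both strands, a search chosen after the sequences had been seen.
S100b: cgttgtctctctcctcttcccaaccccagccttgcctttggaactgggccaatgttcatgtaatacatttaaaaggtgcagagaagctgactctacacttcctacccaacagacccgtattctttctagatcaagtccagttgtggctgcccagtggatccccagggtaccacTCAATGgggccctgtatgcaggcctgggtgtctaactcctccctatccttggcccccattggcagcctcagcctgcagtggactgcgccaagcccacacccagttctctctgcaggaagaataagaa
Cldn19: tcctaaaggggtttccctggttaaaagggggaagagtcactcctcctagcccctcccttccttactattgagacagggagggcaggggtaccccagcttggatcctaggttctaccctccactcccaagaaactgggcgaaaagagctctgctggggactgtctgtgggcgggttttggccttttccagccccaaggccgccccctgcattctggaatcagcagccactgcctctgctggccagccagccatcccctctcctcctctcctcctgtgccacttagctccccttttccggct
*S100b* holds 1 such core, which begins 77 bases before the start, and *Cldn19* holds 0. Of 27025 promoters in the table, 44.5% hold at least 1, so that a match in a window of this length is common and says nothing of binding.

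Between the groups, 6 of the 19 genes of the myelin list could be tested. *Mbp* and *Cnp* were higher in AdKO and the other 4 lower, and the median log2 change of the 6, *Mbp* included, was -0.16 against 0.01 over all rows. No gene had an adjusted *p* under 0.05, and 2 of the 6 had an unadjusted *p* under 0.05, in opposite directions, where 5.73% of all rows did. *Pllp* was 18.7, 18.1 and 17.0 CPM in AdWT against 13.6, 14.5 and 15.9 CPM in AdKO, a log2 change of -0.29 (standard error 0.113, adjusted *p* = 0.851 by edgeR). *Cnp*, the gene of a myelin phosphodiesterase that other cells also make, was 4.38, 4.95 and 4.88 CPM against 5.70, 6.64 and 6.42 CPM, a log2 change of 0.40 (standard error 0.156, adjusted *p* = 0.851 by edgeR). In both genes the groups did not overlap, as in 11.9% of all rows. *Cldn19* had a log2 fold change of -0.49 (standard error 0.540) and *Fa2h* of -0.82 (standard error 0.531), values that AdWT replicate 1 sets. Without that library the median of the 6 genes that could then be tested was 0.20, with 4 higher and 2 lower.

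Of 16 Schwann cell genes outside myelin, *Sox10*, *Cdh19* and *Ngfr* among them, 8 could be tested, 6 higher and 2 lower in AdKO. By edgeR 0 of the 8 had an adjusted or unadjusted *p* under 0.05, beside 0% and 5.73% of all rows. The median log2 fold change was 0.18, and 0.32 without AdWT replicate 1, when 9 genes could be tested, 7 of them higher, and 2 had an unadjusted *p* under 0.05, as 11.8% of all rows did. *Erbb3*, the Schwann cell receptor for axonal neuregulin, was 2.87, 2.03 and 3.07 CPM in AdWT against 2.54, 3.03 and 4.02 CPM in AdKO, with the same library on top as for *Sox10*. *L1cam*, an adhesion gene of axons and of Schwann cells without myelin, was 22.8, 14.3 and 16.9 CPM against 21.2, 21.9 and 21.8 CPM. *Scn7a*, a sodium channel gene of Schwann cells without myelin, reached 291, 436 and 449 CPM against 495, 343 and 404 CPM, and like *S100b* it was lowest in AdWT replicate 1. *Cadm4* had a log2 fold change of -0.12 (standard error 0.297). *Gfap*, a gene of Schwann cells without myelin, had 0 or 1 count in every library.

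Genes of the axon itself spanned a wide range of levels. *Th* and *Tac1*, of catecholamine and of substance P synthesis, were listed at 0 in every library, and *Dbh*, of noradrenaline synthesis, had 2 counts in AdWT replicate 1 and 0 elsewhere. Of 14 axon genes, 4 could be tested, with 0 at an adjusted or unadjusted *p* under 0.05 by edgeR, beside 0% and 5.73% of all rows. Their median log2 change was 0.33, against 0.01 over all rows. Without AdWT replicate 1 the unadjusted count was 1 of 4, beside 11.8% of all rows. *Stmn2*, a gene of growing axons, was 5.55, 3.04 and 3.74 CPM in AdWT against 4.6, 6.12 and 4.44 CPM in AdKO. *Calca*, which encodes the sensory peptide CGRP, was 0.653, 1.01 and 1.0 CPM against 1.1, 1.45 and 1.2 CPM, and its groups did not overlap, as in 11.9% of all rows (log2 fold change 0.48, standard error 0.288, adjusted *p* = 0.853 by edgeR). *Tubb3*, a neuronal tubulin gene, had 23 to 30 counts in AdWT and 24 to 53 in AdKO. *Sncg*, which encodes gamma-synuclein and is also strongly expressed by white adipocytes, was far above the others at 2390 to 3980 CPM in AdWT and 2540 to 2900 CPM in AdKO.

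For the nerve sheath, 3 of 8 listed genes could be tested, all 3 with higher means in AdKO, where 5105 of all 9872 rows tested were higher. The median log2 change was 0.34, against 0.01 over all rows. By edgeR 0 of the 3 had an unadjusted or adjusted *p* under 0.05, beside 5.73% and 0% of all rows. *Slc2a1*, the glucose transporter gene typical of perineurium and of many other cells, was 36.8 to 40.3 CPM in AdWT and 36.8 to 43.2 CPM in AdKO. *Cldn1*, a tight junction gene of perineurium and epithelium, had 15 to 36 counts in AdWT and 25 to 51 in AdKO. *Sox9* had 12 to 22 counts in AdWT and 18 to 45 in AdKO, with the highest value in AdKO replicate 3. *Itgb4*, a laminin receptor gene, had 4 to 8 counts in AdWT and 9 to 15 in AdKO and was not tested. *Lypd2*, another gene of this list, ran the other way with 4 to 5 counts in AdWT and 1 to 2 in AdKO. It was not tested either. In both genes the groups did not overlap, as in 11.9% of the tested rows.

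The signals that nerves and Schwann cells respond to came last. Of 12 genes listed as neurotrophic ligands, 5 could be tested, 1 higher and 4 lower in AdKO, with a median change of -0.23 (log2). The list holds *Clstn3*, described above for release of S100b and not as a ligand. *Clstn3* is 1 of the 4 lower genes, and the median is its value. Of the 5, 1 gene had an unadjusted *p* under 0.05 by edgeR, where 5.73% of all rows had one. This was *Bdnf*, the gene of brain-derived neurotrophic factor, with counts of 34, 42 and 45 in AdWT and 23, 17 and 33 in AdKO. The groups did not overlap, as in 11.9% of all rows, with a log2 change of -0.72 (standard error 0.265) and an adjusted *p* of 0.851 by edgeR. Of 10 receptor genes, 4 could be tested, 2 in each direction, and 1 had an unadjusted *p* under 0.05, again beside 5.73% of all rows. This was *Ntrk2*, which encodes the receptor for brain-derived neurotrophic factor, with counts of 26, 37 and 41 against 16, 22 and 13, and no overlap between the groups, as in 11.9% of all rows. On the log2 scale AdKO less AdWT was -1.0 (standard error 0.306), with an adjusted *p* of 0.851 by edgeR. Neither passed the adjusted threshold. *Nrg4*, a neuregulin that fat secretes, was 18.6, 27.6 and 28.6 CPM against 26.1, 15.7 and 22.7 CPM. *Ntf3*, the gene of neurotrophin 3, had 4 to 15 counts in AdWT and 11 to 18 in AdKO. *Ret*, the signaling receptor for the GDNF family, was 41.9 to 56.4 CPM in AdWT and 40.8 to 45.4 CPM in AdKO, and *Erbb2*, the partner of *Erbb3*, was 30.4 to 37.6 against 33.8 to 37.5 CPM. *Gpr126*, an adhesion receptor gene needed for myelination, was highest in AdKO replicate 3 with 37.0 CPM and its log2 change was 0.28 (standard error 0.238).

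**Figure D4:**
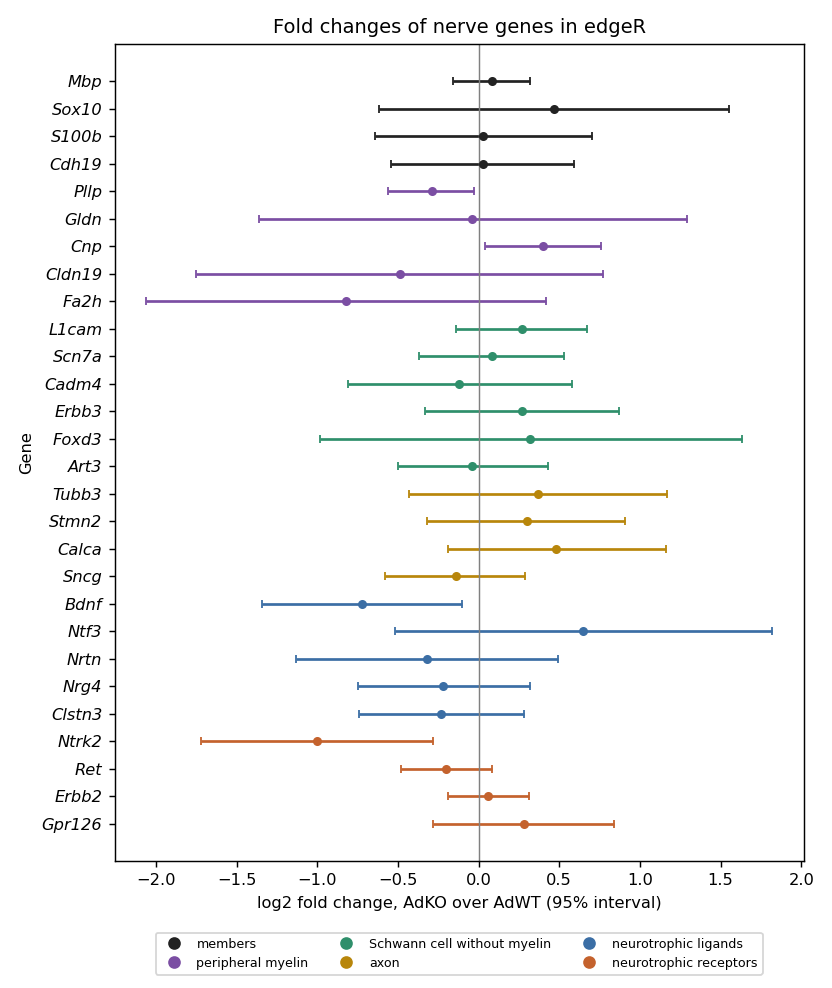
Points give the log2 fold change of AdKO over AdWT from edgeR and bars its 95% interval (horizontal axis in log2 units) for the 4 tested members and the tested genes of 5 nerve lists, colored by list. The intervals of the 4 members all include 0, and those of *Sox10*, *Cldn19* and *Fa2h* are the widest beside *Foxd3*, *Gldn* and *Ntf3*.

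The rows whose levels ran most like the mean log2 CPM of *Mag*, *Sox10* and *Cdh19* were *Rfx1*, *Slc4a11*, *Gfm2*, *Cx3cl1* and *Sp140*, with Pearson's r of 0.977 to 0.990 over the 6 libraries. *Mag* adds a constant to that mean. Of 9868 rows, 124 (1.26%) had an r over 0.9, and with 6 points that share depth this is a description only.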

How the data were processed

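RNA-Seq of iWAT gave 6 libraries, 3 *Lexis*-AdWT and 3 *Lexis*-AdKO by their labels. The authors prepared them with a KAPA Stranded RNA-Seq Kit, aligned reads with HISAT2 to mm9 and deposited raw counts without normalization in 37024 rows, of which 17470 were at 0 throughout. The counting tool, its annotation and its strand setting are not given in the sources used here. The submitters' processing notes name DESeq2. No column of the table was without a sample (0 columns).

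Counts were filtered with filterByExpr, scaled by TMM and tested over all 9872 rows kept with glmQLFTest of edgeR 4.0.16 (R 4.3.3, limma 3.58.1), with Benjamini-Hochberg adjustment and a threshold of 0.05. The common biological coefficient of variation was 0.196. Standard errors were derived from the F statistic, and 95% intervals from its total degrees of freedom, the residual and the prior ones together. Log2 CPM had 0.5 added. Alternatives, given at the end, included DESeq2 1.42.0. Python 3.11.15 with scipy 1.17.1 and matplotlib 3.10.9 served intervals and figures, and the edgeR step was tested on simulated data. The labels call the replicates separate samples, so *p* values measure the spread between them.

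The 7 genes and the lists were chosen with earlier results of these data known. Genes were named by a rule: all members, in each list the 4 genes with the highest mean CPM and those with an unadjusted *p* under 0.05, and the 5 rows most like the mean of *Mag*, *Sox10* and *Cdh19*. The lists of other cell types are given mostly as sums, and other genes were named after their values were seen. Lists for fibroblasts, endothelium and macrophages had 0 genes at an unadjusted *p* under 0.05.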

Additional observations from a re-analysis of the deposited data

How the results depend on the processing

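Alternatives were DESeq2 with its defaults and with independent filtering set to the threshold of 0.05, RLE scaling, library size only, filters keeping rows with 1 or more counts in any library or with 10 or more in every one, rows of a symbol summed, the replicate number as a block, and each library left out in turn. Under all 14, 0 of the 4 members had an adjusted *p* under 0.05. Over all rows the number called was 0 in edgeR, 17 with DESeq2, 27 with DESeq2 when its independent filtering was set to 0.05, 1 with the looser filter, and 0 to 1 with each library left out, the 1 being without AdKO replicate 3. *Mbp* and *Sox10* stayed higher in AdKO under all 14, with log2 fold changes of 0.02 to 0.16 and 0.08 to 1.03. *Cdh19* changed sign to -0.02 with the replicate block, -0.04 without AdWT replicate 2 and -0.26 without AdKO replicate 1. *S100b* changed sign to -0.17 without AdWT replicate 1, -0.12 without AdWT replicate 2 and -0.11 without AdKO replicate 1. With each library left out in turn, *Cdh19* ranged from -0.26 to 0.22 and *S100b* from -0.17 to 0.45. The number of members whose groups did not overlap was 0, and 0 to 1 with each library left out (1 without AdWT replicate 1 and 1 without AdWT replicate 3). The causes were not tested. With the replicate block 0 rows were called, and *Sox10* had a log2 fold change of 0.50. Deviations of same-numbered libraries correlated at -0.10, -0.12 and 0.35, and 2 of 6 libraries correlated best with their own number, so the numbers were not taken as pairs. The values of the lists without AdWT replicate 1, the minimum of 10 counts in the other 5 libraries, the shares of all rows with a library left out and the second DESeq2 setting were added after the data were seen. Depth limits *Sox10*, *Cldn19* and the axon genes, whose counts lay under 100 per library apart from *Sncg*.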
